A study of Mus musculus with 12 samples.

Results

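The effect of CTCF loss on the transcriptome of activated B cells was compared between 2 ways of activating them. For each gene the difference between CTCFfl/fl and CTCFfl/+ cells was taken within co-cultures of B cells and T cells stimulated through CD3 and CD28 (CD3/CD28) and within cultures with lipopolysaccharide and interleukin 4 (LPS/IL4), and the LPS/IL4 difference was subtracted from the CD3/CD28 difference. All 12 RNA-seq libraries entered, and a gene entered if at least 3 of the 6 libraries of each culture had at least 1 CPM (read counts scaled to the size of the library), which held for 11847 of the 12699 genes in the table. Values are differences of log2(CPM + 0.5), so a positive value means that the CTCFfl/fl level relative to CTCFfl/+ was higher in CD3/CD28 than in LPS/IL4, and a gene was called where the culture by genotype interaction had a Benjamini-Hochberg adjusted p under 0.05 in limma.

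The 4 groups were CTCFfl/fl; AID-CRETG/+ and CTCFfl/+; AID-CRETG/+ cells of CD3/CD28 co-cultures, and the same genotypes of LPS/IL4 cultures, with 3 libraries each. Resting B cells came from spleens of mice 8 to 12 weeks old and received, for 48 h, either LPS at 50 μg/ml and IL4 at 5 ng/ml, or T cells with anti-CD3 at 5 μg/ml and anti-CD28 at 1 μg/ml, as the sample records give them; the study's methods give some other concentrations. Cells expressing the hCD2 reporter were then sorted, and each library pooled cells of 2 to 3 mice. The Cre recombinase was driven by the locus of activation-induced deaminase, so that Ctcf was deleted during activation, and the CTCFfl/+ cells carried the same transgene and 1 floxed allele of their own. The records state that the cultures were processed as separate batches, so culture and batch cannot be told apart.

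CTCF is a zinc finger protein that binds DNA at a long, directional motif and stops the extrusion of chromatin loops by cohesin, which sets contacts between promoters and distant elements. In B cells AID is switched on after activation, and it starts class switching and hypermutation of antibody genes in germinal centres. LPS acts through toll-like receptor 4 without T cells, whereas activated T cells provide CD40 ligand and cytokines. The comparison asks which genes depend on CTCF differently under these 2 kinds of activation.

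Whole reads recovered from the CPM steps ran from 6934344 to 11227004 in CD3/CD28 libraries and from 23469188 to 28130440 in LPS/IL4 libraries. Of 9901 genes averaging 5 CPM or more, 98.9% had culture means within 0.1 log2 units of each other, so that levels were compared only within a culture. Whether the genotype effects of both cultures were on the same scale before deposit cannot be told from the table. Summed B cell markers lay between 13847 and 14625 CPM in CTCFfl/fl and between 12996 and 14899 CPM in CTCFfl/+ CD3/CD28 libraries, and between 14042 and 15216 and between 13707 and 15376 CPM in CTCFfl/fl and CTCFfl/+ LPS/IL4 libraries. In CD3/CD28 libraries of either genotype Cd3d, Cd3e, Cd4, Trbc1 and Trbc2, which mark T cells, were at most at 0.18 CPM. In LPS/IL4 libraries, without added T cells, Cd3d, Cd3e and Cd4 reached 2.26, 3.05 and 2.50 CPM. Summed T cell markers there ran from 254 to 325 CPM in CTCFfl/fl and from 238 to 291 CPM in CTCFfl/+. With culture means nearly equal for most genes, such levels cannot tell which culture held more T cells. Other T cell markers were detected in CD3/CD28 libraries. Cd3g was at 1.89 to 3.53 CPM in CTCFfl/fl and 0.72 to 1.12 CPM in CTCFfl/+, with a log2 effect of 1.11 that was called in CD3/CD28 alone (limma, adjusted p = 0.027) but not in the interaction (adjusted p = 0.086). Cd8a was at 1.65 to 2.13 CPM in CTCFfl/fl and 1.72 to 2.60 CPM in CTCFfl/+, and Trac at 0.47 to 0.80 and 0.43 to 0.47 CPM in these groups. Of 11 T cell markers tested, 4 were called as higher and 1 as lower in CTCFfl/fl in CD3/CD28, and the part of T cells in the results was not tested. Xist, the RNA of the silenced X chromosome, was at 1266 CPM in CD3/CD28 CTCFfl/fl library 2 and 1602 CPM in CTCFfl/+ library 3 and at most at 14.0 CPM in the other CD3/CD28 libraries. The Y-linked gene Ddx3y was at 716 CPM in LPS/IL4 CTCFfl/fl library 1 and 780.0 CPM in CTCFfl/+ library 1 and at most at 0.75 CPM in the other LPS/IL4 libraries, so that the sex of the pooled mice varied within both genotypes there. In all 6 CD3/CD28 libraries Ddx3y was at most at 3.19 CPM and the Y-linked gene Eif2s3y at most at 3.88 CPM. These levels cannot be set against those of LPS/IL4, since culture means were nearly equal for most genes. Within CD3/CD28, Ddx3y, Eif2s3y and the Y-linked genes Kdm5d and Uty were higher in every low-Xist library than in either high-Xist one. Kdm5d was at 21.96 to 27.28 CPM with low Xist, against 13.99 CPM in CTCFfl/fl library 2 and 3.74 CPM in CTCFfl/+ library 3. Uty was at 4.36 to 6.89 CPM, against 2.92 and 0.37 CPM. Y-linked levels thus ran opposite to Xist there, and the sex of the mice was not tested.

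Ctcf itself did not pass the test for a difference between the cultures. It had 75.9, 76.3 and 71.97 CPM in CTCFfl/fl, against 138, 127 and 126 CPM in CTCFfl/+ in CD3/CD28, and 63.1, 69.4 and 78.3 CPM in CTCFfl/fl, against 134, 143 and 146 CPM in CTCFfl/+ in LPS/IL4. In each culture every CTCFfl/fl library lay below every CTCFfl/+ library. The log2 effect was -0.80 in CD3/CD28 and -1.01 in LPS/IL4, with a difference of 0.21. Its standard error was 0.11 and its 95% interval ran from -0.03 to 0.45 (limma, adjusted p = 0.29). The interval thus leaves room for a fall in CD3/CD28 as deep as in LPS/IL4 or less deep by up to 0.45 log2 units. The reads cover the whole gene, including parts outside the deleted segment.

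The genotype effect differed between the cultures for 897 genes, 7.57% of the 11847 tested, and 2739 had an unadjusted p under 0.05. CD3/CD28 had the more positive effect for 460 (3.88%) and the more negative one for 437 (3.69%). Over all genes tested the median difference was 0.02. Tested alone, CD3/CD28 gave 2250 calls among 12070 genes (18.6%), with 1193 higher (9.88%) and 1057 lower (8.76%) in CTCFfl/fl, whereas LPS/IL4 gave 4 among 11962 (0.0334%), with 796 at an unadjusted p under 0.05. Of the 897, 795 had a call in the CD3/CD28 fit, 2 had one in the LPS/IL4 fit (Carmil2, and Spata13, which had both) and 101 had neither. The CD3/CD28 effect was the larger in size for 826 and the LPS/IL4 effect for 71.

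**Figure D1:**
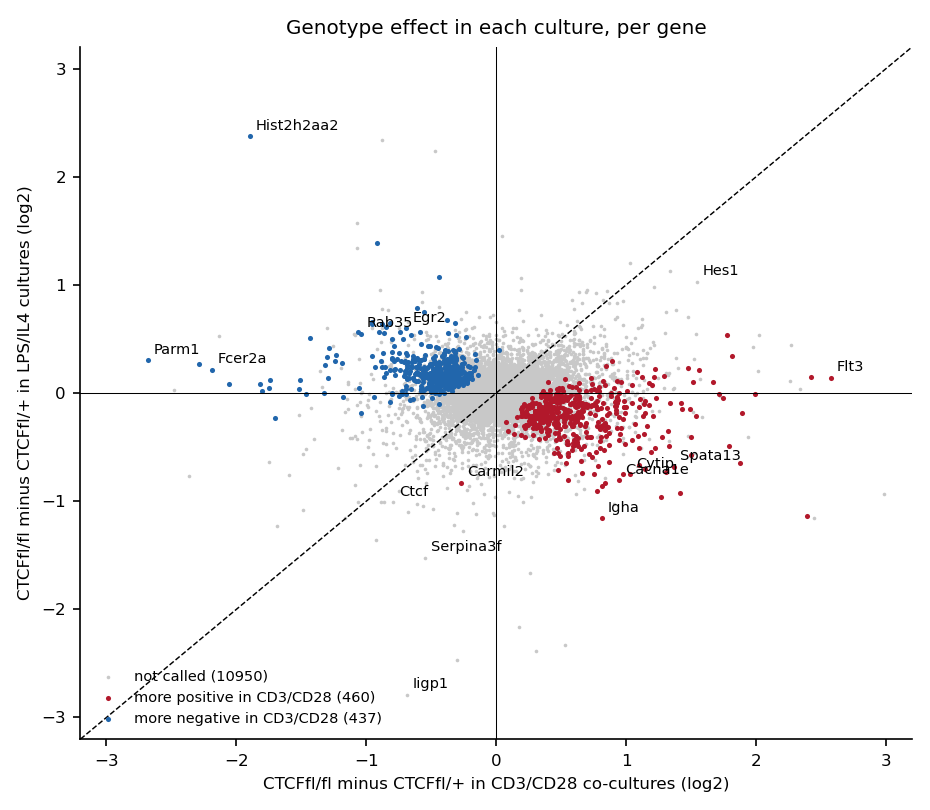
Genotype effect (CTCFfl/fl minus CTCFfl/+, log2) of each gene in CD3/CD28 (horizontal) against LPS/IL4 (vertical), with called genes in red (460 more positive in CD3/CD28) and blue (437 more negative), other genes in grey and equal effects on the dashed line. Called genes spread mostly along the horizontal axis with a slight tilt into the quadrants of opposite sign, and Ctcf lies near the dashed line; 4 genes lie outside the axes.

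The effects had opposite signs in the cultures for 830 of the 897 called genes (92.5%), against 53% of all genes tested. A call for a large difference favours opposite signs by its construction, and no test was made of this share. Of the 830, 413 were higher in CTCFfl/fl in CD3/CD28 and lower in LPS/IL4, and 417 were the reverse. The median size of the effect among called genes was 0.49 in CD3/CD28 and 0.19 in LPS/IL4, against 0.18 and 0.10 over all genes tested. The libraries of the 2 genotypes did not overlap in CD3/CD28 for 862 called genes (background 39.9%) and in LPS/IL4 for 278 (background 11%). They were apart in both cultures and in opposite directions for 244 (background 2.86%) and in the same direction for 6 (background 1.81%). The calls come from the same libraries and so favour genotypes that lie apart. No test of these counts against the background was made. The 95% interval of the LPS/IL4 effect left out 0 for 260 called genes. In the deposited values the differences were thus carried mainly by CD3/CD28. The LPS/IL4 effects were mostly of the opposite sign, with a size mostly within the spread of the LPS/IL4 libraries. Whether effects and spread of both cultures were on the same scale before deposit cannot be told, so this holds for the deposited values only.

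Precision bounds what could be called. For genes averaging 5 CPM or more, the distance from a difference to either end of its 95% interval had a median of 0.32 log2 units, with 0.22 at the 10th and 0.55 at the 90th percentile. Genes with larger CD3/CD28 effects also varied more between libraries of 1 group. Among genes of 20 to 100 CPM, the median SD within a group was 0.099 log2 units in CD3/CD28 and 0.106 in LPS/IL4 where the CD3/CD28 effect was under 0.1 in size, and 0.283 in CD3/CD28 and 0.282 in LPS/IL4 where it was at least 1. Of the called genes 199 had a difference of at least 1 log2 unit. The count fell to 458 without CD3/CD28 CTCFfl/+ library 1, to 405 without CTCFfl/+ library 3, to 475 without CTCFfl/fl library 2 and to 509 without LPS/IL4 CTCFfl/fl library 3. It was 156 without both CD3/CD28 libraries with high Xist, which leaves 2 libraries of each genotype in that culture.

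The genes with the most positive differences had varied functions. Flt3, a receptor tyrosine kinase of early haematopoietic progenitors, had 88.3, 86.9 and 77.9 CPM in CTCFfl/fl, against 13.2, 14.1 and 13.9 CPM in CTCFfl/+ in CD3/CD28. Its LPS/IL4 libraries had 48.2, 34.9 and 44.97 CPM in CTCFfl/fl, against 46.01, 32.5 and 37.4 CPM in CTCFfl/+. The genotypes were far apart in CD3/CD28 and overlapped in LPS/IL4, and the difference was 2.43 (standard error 0.18, adjusted p = 8.5e-06). Spata13, a guanine nucleotide exchange factor, had 89.7, 109 and 82.8 CPM in CTCFfl/fl, against 37.9, 34.6 and 35.2 CPM in CTCFfl/+ in CD3/CD28. With LPS and IL4 it had 49.7, 50.6 and 40.8 CPM in CTCFfl/fl, against 73.9, 78.7 and 73.3 CPM in CTCFfl/+. It rose in CTCFfl/fl in 1 culture and fell in the other, with effects of 1.37 and -0.68, each called in its own culture, and a difference of 2.05 (standard error 0.15, adjusted p = 8.5e-06). Cytip, a scaffold protein that modulates the adhesion of leukocytes, had 572, 579 and 463 CPM in CTCFfl/fl, against 275, 233 and 281 CPM in CTCFfl/+ in CD3/CD28. Under LPS/IL4 the levels were 328, 351 and 216 CPM in CTCFfl/fl, against 504, 467 and 500.1 CPM in CTCFfl/+. Its libraries did not overlap in either culture and their order was reversed, with a difference of 1.77 (standard error 0.20, adjusted p = 0.00063).

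**Figure D2:**
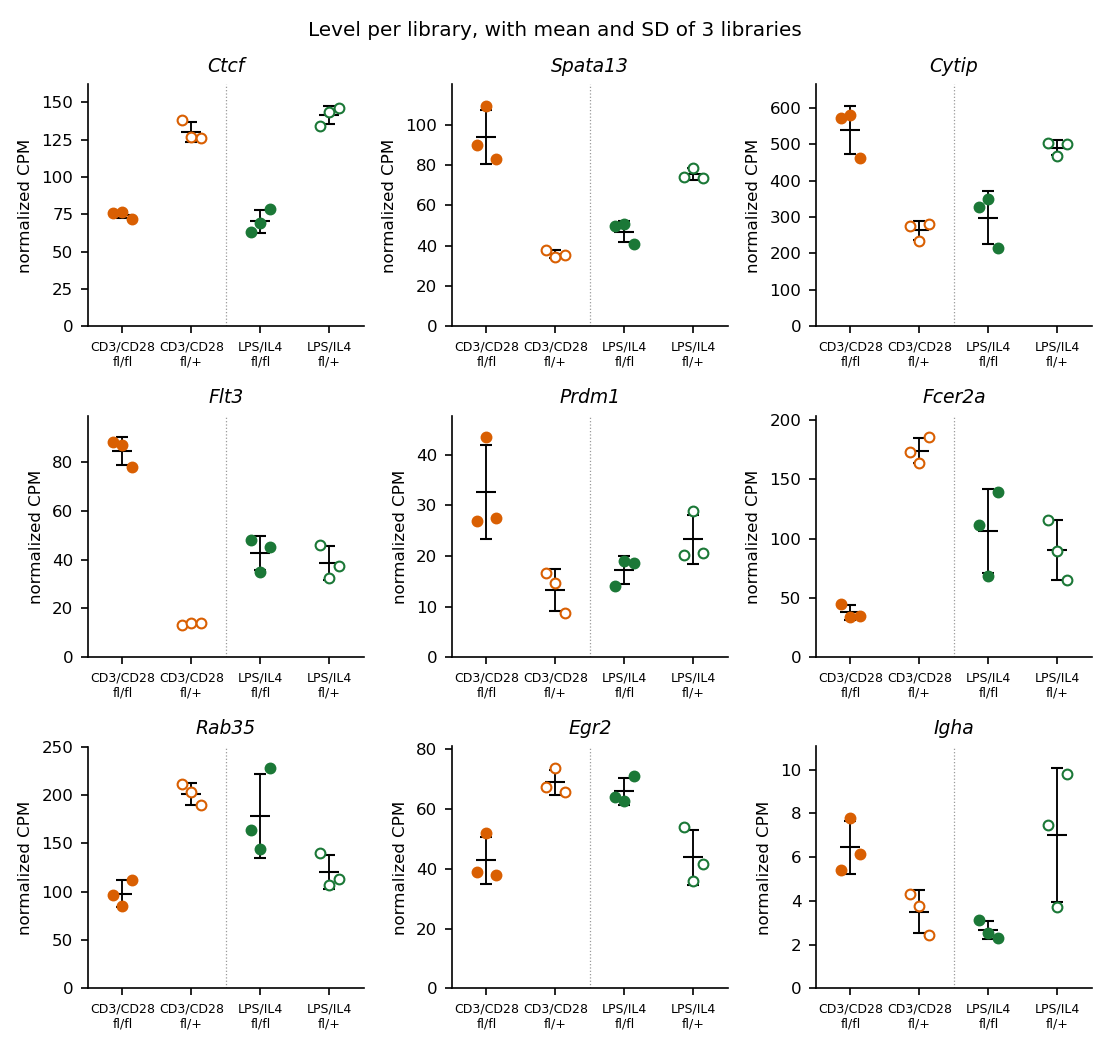
Normalized CPM of 9 genes in each of the 12 libraries (points), with the mean and SD of the 3 libraries of each group, CTCFfl/fl filled and CTCFfl/+ open, CD3/CD28 left and LPS/IL4 right of the dotted line. Ctcf was lower in CTCFfl/fl in both cultures, whereas Spata13, Cytip, Prdm1 and Igha were higher in CTCFfl/fl in CD3/CD28 and lower in LPS/IL4, and Rab35 and Egr2 were lower in CD3/CD28 and higher in LPS/IL4.

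Prdm1, which encodes the plasma cell regulator Blimp-1, had 27.03, 43.4 and 27.5 CPM in CTCFfl/fl, against 16.7, 14.6 and 8.70 CPM in CTCFfl/+ in CD3/CD28. LPS/IL4 cultures had 14.2, 19.1 and 18.6 CPM in CTCFfl/fl, against 20.3, 28.96 and 20.6 CPM in CTCFfl/+. The CTCFfl/fl libraries were all above in CD3/CD28 and all below in LPS/IL4, with effects of 1.27 and -0.41 and a difference of 1.69 (standard error 0.33, adjusted p = 0.01). The LPS/IL4 effect alone did not pass its test. Bmf, a proapoptotic BH3-only protein, had 35.9, 45.1 and 19.8 CPM in CTCFfl/fl, against 11.8, 10.9 and 9.45 CPM in CTCFfl/+ in CD3/CD28 and 15.4, 21.1 and 20.7 CPM in CTCFfl/fl, against 24.8, 21.9 and 19.6 CPM in CTCFfl/+ in LPS/IL4. Txnip, an inhibitor of thioredoxin that also curbs glucose uptake, had 364, 394 and 321 CPM in CTCFfl/fl, against 173, 126 and 167 CPM in CTCFfl/+ in CD3/CD28 and 177, 250.2 and 213 CPM in CTCFfl/fl, against 216, 288 and 434 CPM in CTCFfl/+ in LPS/IL4. Both were apart only in CD3/CD28, with differences of 1.75 (standard error 0.32, adjusted p = 0.0079) for Bmf and 1.73 (standard error 0.28, adjusted p = 0.0046) for Txnip. Aldoc, a glycolytic aldolase, had 192, 283 and 129 CPM in CTCFfl/fl, against 77.5, 46.4 and 54.4 CPM in CTCFfl/+ in CD3/CD28 and 136, 104 and 104 CPM in CTCFfl/fl, against 109.7, 108 and 127 CPM in CTCFfl/+ in LPS/IL4, a difference of 1.72 (standard error 0.32, adjusted p = 0.0086). Its LPS/IL4 effect was -0.01.

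A chemokine receptor was among them as well. Ccr6, which guides B cells towards CCL20, had 73.8, 69.2 and 66.4 CPM in CTCFfl/fl, against 23.1, 25.6 and 28.1 CPM in CTCFfl/+ in CD3/CD28. The LPS/IL4 levels were 41.5, 48.1 and 31.6 CPM in CTCFfl/fl, against 57.2, 34.9 and 42.7 CPM in CTCFfl/+, and the difference was 1.57 (standard error 0.23, adjusted p = 0.0025). Cacna1e, a voltage-gated calcium channel subunit, and Rgs2, which shortens signalling by G proteins, had differences of 1.75 (standard error 0.32, adjusted p = 0.0085) and 1.77 (standard error 0.41, adjusted p = 0.021). In CD3/CD28 Cacna1e had 58.9, 109 and 70.1 CPM in CTCFfl/fl, against 35.5, 44.4 and 39.4 CPM in CTCFfl/+, and in LPS/IL4 36.1, 63.95 and 35.5 CPM in CTCFfl/fl, against 84.8, 84.8 and 61.7 CPM in CTCFfl/+. Xntrpc had the largest positive difference of these 12 genes, 3.52 (standard error 0.99, adjusted p = 0.044), but its CTCFfl/+ CD3/CD28 libraries ran from 0 to 7.56 CPM. Of the 12, Xntrpc and Rgs2 lost their calls without CD3/CD28 CTCFfl/+ library 1 or 3, among others, with adjusted p up to 0.24 and 0.11 over the alternatives, whereas 9 were called under every alternative.

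The 12 genes with the most negative differences had varied functions. Fcer2a, the low-affinity IgE receptor CD23 that IL4 induces, had 45.3, 34.1 and 34.8 CPM in CTCFfl/fl, against 173, 164 and 185 CPM in CTCFfl/+ in CD3/CD28. In LPS/IL4 it had 111, 68.8 and 139.5 CPM in CTCFfl/fl, against 116, 89.7 and 65.5 CPM in CTCFfl/+. The genotypes did not overlap in CD3/CD28 and overlapped in LPS/IL4, and the difference was -2.41 (standard error 0.31, adjusted p = 0.0011). Parm1, a mucin-like membrane protein, had 2.05, 3.16 and 2.60 CPM in CTCFfl/fl, against 19.4, 21.1 and 17.3 CPM in CTCFfl/+ in CD3/CD28 and 9.92, 5.27 and 13.4 CPM in CTCFfl/fl, against 10.01, 8.08 and 4.39 CPM in CTCFfl/+ in LPS/IL4, with a difference of -2.99 (standard error 0.42, adjusted p = 0.0021). Slc15a3, a lysosomal histidine and peptide transporter, had 20.4, 19.7 and 20.2 CPM in CTCFfl/fl, against 67.9, 74.04 and 63.8 CPM in CTCFfl/+ in CD3/CD28 and 41.6, 33.2 and 49.7 CPM in CTCFfl/fl, against 40.1, 33.4 and 40.1 CPM in CTCFfl/+ in LPS/IL4. This is a difference of -1.86 (standard error 0.18, adjusted p = 0.00011), which came almost wholly from CD3/CD28, where the effect was -1.74 against 0.12 in LPS/IL4. Lta, which encodes lymphotoxin alpha, had 4.09, 4.38 and 2.60 CPM in CTCFfl/fl, against 15.8, 12.5 and 13.3 CPM in CTCFfl/+ in CD3/CD28 and 10.7, 4.56 and 8.14 CPM in CTCFfl/fl, against 6.27, 9.26 and 6.64 CPM in CTCFfl/+ in LPS/IL4, a difference of -1.82 (standard error 0.37, adjusted p = 0.012).

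Rab35 and Spsb1 were lower in CTCFfl/fl in CD3/CD28 and higher in LPS/IL4 without overlap in either culture. Rab35, a GTPase of endosome recycling, had 96.2, 85.2 and 112 CPM in CTCFfl/fl, against 212, 203 and 189 CPM in CTCFfl/+ in CD3/CD28. Its LPS/IL4 libraries had 163, 145 and 228 CPM in CTCFfl/fl, against 141, 107 and 113 CPM in CTCFfl/+, and the difference was -1.59 (standard error 0.21, adjusted p = 0.0011). Spsb1, a SOCS box protein, had 4.89, 5.47 and 2.12 CPM in CTCFfl/fl, against 9.62, 7.09 and 7.48 CPM in CTCFfl/+ in CD3/CD28 and 9.03, 5.27 and 8.88 CPM in CTCFfl/fl, against 5.26, 4.45 and 4.15 CPM in CTCFfl/+ in LPS/IL4, with a difference of -1.61 (standard error 0.39, adjusted p = 0.025). The other genes of this set overlapped in LPS/IL4. Zfp280b, a zinc finger protein, had 86.5, 88.8 and 100.3 CPM in CTCFfl/fl, against 231, 224 and 220.0 CPM in CTCFfl/+ in CD3/CD28 and 163, 137 and 216 CPM in CTCFfl/fl, against 145, 129 and 108 CPM in CTCFfl/+ in LPS/IL4, with a difference of -1.71 (standard error 0.19, adjusted p = 0.00049). Lifr, the receptor of leukaemia inhibitory factor, had 12.4, 15.6 and 21.2 CPM in CTCFfl/fl, against 49.97, 48.7 and 42.6 CPM in CTCFfl/+ in CD3/CD28 and 26.3, 32.7 and 27.3 CPM in CTCFfl/fl, against 24.7, 25.9 and 34.1 CPM in CTCFfl/+ in LPS/IL4, with a difference of -1.56 (standard error 0.24, adjusted p = 0.0028). The cell adhesion gene Lad1, the transcription factor Insm1, the surface glycoprotein Thy1 and the xylosyltransferase Xylt1 differed by -1.80, -1.63, -1.63 and -1.47. Thy1 is also a T cell marker and was at 18.3, 10.8 and 12.5 CPM in CTCFfl/fl, against 44.8, 25.6 and 34.6 CPM in CTCFfl/+ in CD3/CD28, a fall in CTCFfl/fl there, while the summed level of 18 T cell markers ran from 285 to 325 CPM in CTCFfl/fl and from 232 to 249.7 CPM in CTCFfl/+ CD3/CD28 libraries, and the part of other cells in these values was not tested. Of the 12 genes, Thy1, Spsb1 and Xylt1 lost their calls without CD3/CD28 CTCFfl/+ library 1, among others (adjusted p up to 0.16, 0.065 and 0.068 over the alternatives), and Lad1 lost its call without both high-Xist libraries (adjusted p = 0.072).

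For 71 called genes the effect was larger in size in LPS/IL4, and the 10 with the smallest adjusted p among them had opposite signs in the cultures. Atf5, a transcription factor of the integrated stress response, had 22.8, 25.9 and 23.01 CPM in CTCFfl/fl, against 28.6, 31.1 and 29.3 CPM in CTCFfl/+ in CD3/CD28. With LPS and IL4 it had 35.1, 29.5 and 38.1 CPM in CTCFfl/fl, against 22.4, 23.6 and 24.2 CPM in CTCFfl/+. The CTCFfl/fl libraries were all lower in CD3/CD28 and all higher in LPS/IL4, with a difference of -0.84 (standard error 0.14, adjusted p = 0.0064). Igha, the constant region of IgA heavy chains, had 5.42, 7.79 and 6.14 CPM in CTCFfl/fl, against 4.31, 3.78 and 2.43 CPM in CTCFfl/+ in CD3/CD28 and 3.14, 2.54 and 2.32 CPM in CTCFfl/fl, against 7.47, 3.73 and 9.78 CPM in CTCFfl/+ in LPS/IL4, with a difference of 1.97 (standard error 0.40, adjusted p = 0.013). Hist2h2aa2, a histone H2A gene with a near-identical copy beside it, had 1.78, 0 and 0.590 CPM in CTCFfl/fl, against 3.02, 4.01 and 3.55 CPM in CTCFfl/+ in CD3/CD28 and 5.81, 6.76 and 6.26 CPM in CTCFfl/fl, against 0, 1.69 and 1.51 CPM in CTCFfl/+ in LPS/IL4. Its difference of -4.28 (standard error 0.75, adjusted p = 0.0069) is uncertain, since reads of the copies can be split, and it was not called by DESeq2 on the recovered reads (adjusted p = 0.086).

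Serp1, a stabiliser of membrane proteins in the endoplasmic reticulum, had 600.5, 569 and 624 CPM in CTCFfl/fl, against 489, 522 and 496 CPM in CTCFfl/+ in CD3/CD28 and 547, 496 and 532 CPM in CTCFfl/fl, against 597, 666 and 622 CPM in CTCFfl/+ in LPS/IL4. The difference was 0.51 (standard error 0.09, adjusted p = 0.0086). Cpeb2, a regulator of translation, and the tetraspanin Tspan3 were likewise higher in CD3/CD28 and lower in LPS/IL4 without overlap, with differences of 1.03 and 0.52. F8a also ran this way, with a difference of 1.08, whereas Ncs1, a neuronal calcium sensor, and Fam133b ran the other way, with -1.06 and -0.68. Ubald2 differed by 0.58, with libraries apart in LPS/IL4 and overlapping in CD3/CD28. Of the 10 genes Atf5, Serp1, Tspan3 and Ubald2 were called under every alternative. None of the 10 had a call in LPS/IL4 alone.

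Carmil2, a capping protein regulator needed for costimulation through CD28 in T cells, differed in size but not in direction. It had 69.98, 52.2 and 59.4 CPM in CTCFfl/fl, against 70.1, 74.8 and 72.7 CPM in CTCFfl/+ in CD3/CD28 and 53.9, 50.7 and 47.2 CPM in CTCFfl/fl, against 90.2, 85.3 and 95.1 CPM in CTCFfl/+ in LPS/IL4. The libraries of the genotypes did not overlap in either culture and CTCFfl/fl was the lower in both. The effect was -0.27 in CD3/CD28, which was not called, and -0.83 in LPS/IL4, which was, and the difference was 0.56 (standard error 0.14, adjusted p = 0.024). The call was lost without LPS/IL4 CTCFfl/fl library 3, LPS/IL4 CTCFfl/+ library 3 or either of CD3/CD28 CTCFfl/+ libraries 1 and 3, with adjusted p up to 0.061 over the alternatives.

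Of 2226 genes called in CD3/CD28 alone and tested in both cultures, 1431 were not called in the interaction, and 830 of these had effects of the same sign in LPS/IL4. For 94 the 95% interval in LPS/IL4 left out 0 with the same sign as in CD3/CD28, 61 higher and 33 lower in CTCFfl/fl, and for 1 it left out 0 with the opposite sign. The gene with the largest such LPS/IL4 effect was Iigp1, an interferon-induced GTPase that guards against intracellular pathogens. It had 18.6, 22.5 and 20.5 CPM in CTCFfl/fl, against 33.2, 36.4 and 30.8 CPM in CTCFfl/+ in CD3/CD28 and 7.63, 23.7 and 3.09 CPM in CTCFfl/fl, against 41.01, 101 and 55.1 CPM in CTCFfl/+ in LPS/IL4. CTCFfl/fl was lower without overlap in both cultures, and the effects were -0.69 and -2.79, with a difference of 2.10 (standard error 0.66, adjusted p = 0.069). Serpina3f, a serine protease inhibitor of a multigene family, had 39.5, 28.2 and 31.1 CPM in CTCFfl/fl, against 46.8, 55.4 and 42.8 CPM in CTCFfl/+ in CD3/CD28 and 25.5, 32.2 and 13.9 CPM in CTCFfl/fl, against 54.02, 91.5 and 57.6 CPM in CTCFfl/+ in LPS/IL4. It was called in each culture alone, with effects of -0.55 and -1.52, and its difference was 0.97 (standard error 0.35, adjusted p = 0.11).

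Tgtp1, another interferon-induced GTPase with a near-identical copy, had effects of -0.32 under CD3/CD28 and -1.22 under LPS/IL4, and a difference of 0.90 (standard error 0.32, adjusted p = 0.11). Hes1, a transcriptional repressor downstream of Notch, had 5.96, 8.88 and 4.48 CPM in CTCFfl/fl, against 2.15, 1.18 and 2.24 CPM in CTCFfl/+ in CD3/CD28 and 3.31, 7.55 and 4.31 CPM in CTCFfl/fl, against 2.39, 2.12 and 1.79 CPM in CTCFfl/+ in LPS/IL4. It was higher in CTCFfl/fl in both cultures without overlap, with a difference of 0.51 (standard error 0.42, adjusted p = 0.52). Lif, Prlr and Slco3a1 were lower in CTCFfl/fl in CD3/CD28, with effects of -1.49, -1.16 and -1.07, and their LPS/IL4 effects were -1.08, -1.15 and -1.01. Their differences ran from -0.41 to -0.01, with adjusted p from 0.58 to 0.99. An adjusted p above the threshold does not show equal effects: the 95% interval of the difference was -0.39 to 1.42 for Hes1 and -1.11 to 1.09 for Prlr.

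Among the gene lists, ribosome biogenesis and RNA polymerase I had the most called members. Of its 54 genes 34 were more negative in CD3/CD28 and 0 more positive, against 3.69% and 3.88% of all genes tested, and 53 of 54 differences were below 0. The median difference was -0.57, against 0.02 over all genes, from a median effect of -0.39 under CD3/CD28 and 0.13 under LPS/IL4. Polr1b, the second largest subunit of RNA polymerase I, had 44.8, 39.9 and 47.8 CPM in CTCFfl/fl, against 65.5, 65.9 and 71.7 CPM in CTCFfl/+ in CD3/CD28. LPS/IL4 cultures had 48.3, 65.8 and 65.8 CPM in CTCFfl/fl, against 43.4, 49.9 and 48.96 CPM in CTCFfl/+. It fell in CTCFfl/fl in CD3/CD28, the groups overlapped in LPS/IL4, and the difference was -0.94 (standard error 0.16, adjusted p = 0.0065). Nop2, a methyltransferase of ribosomal RNA, had 87.9, 72.1 and 92.6 CPM in CTCFfl/fl, against 115, 123 and 133 CPM in CTCFfl/+ in CD3/CD28 and 97.9, 117 and 111 CPM in CTCFfl/fl, against 90.9, 86.6 and 98.8 CPM in CTCFfl/+ in LPS/IL4, with a difference of -0.80 (standard error 0.14, adjusted p = 0.0069). Wdr75, a factor of the small subunit processome, had 48.6, 44.5 and 50.9 CPM in CTCFfl/fl, against 72.1, 64.2 and 69.2 CPM in CTCFfl/+ in CD3/CD28 and 57.00, 58.5 and 65.2 CPM in CTCFfl/fl, against 51.8, 54.9 and 53.03 CPM in CTCFfl/+ in LPS/IL4, with a difference of -0.68 (standard error 0.11, adjusted p = 0.0053). Rrp1b differed by -0.58 (standard error 0.11, adjusted p = 0.0085), and nucleolin (Ncl), Ddx21, Gnl3 and Bop1, named here after their values were seen, by -0.58, -0.68, -0.92 and -0.76.

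**Figure D3:**
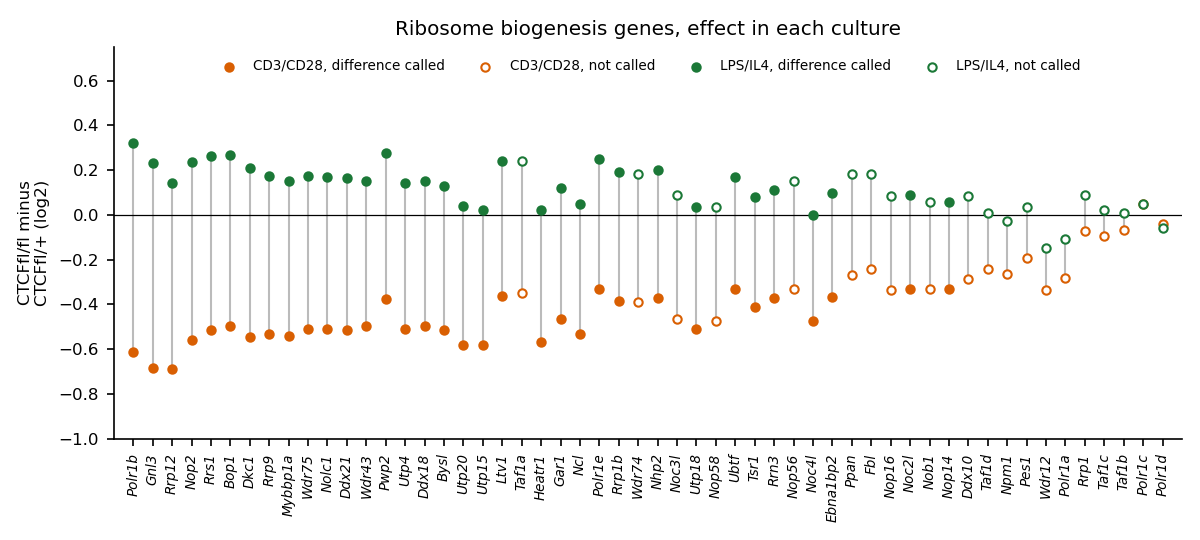
Genotype effect (log2) of the 54 ribosome biogenesis genes in CD3/CD28 (orange) and LPS/IL4 (green), ordered by the difference, filled where the difference was called (34 genes). In CD3/CD28 53 of 54 effects lay below 0, and in LPS/IL4 49 of 54 lay above it.

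Over the list, the CTCFfl/fl libraries of CD3/CD28 stood at medians of -0.34, -0.57 and -0.35 log2 units from the CTCFfl/+ mean, against -0.01, -0.04 and 0.04 for the CTCFfl/+ libraries. In LPS/IL4 the CTCFfl/fl libraries stood at 0.00, 0.21 and 0.15, against -0.04, 0.04 and 0.04 in CTCFfl/+. The CD3/CD28 groups were thus apart, and CTCFfl/fl library 2, which has high Xist, was the lowest, whereas in LPS/IL4 CTCFfl/fl library 1 lay within the CTCFfl/+ range. The count of 34 ran from 15 (without CD3/CD28 CTCFfl/+ library 3) to 37 with single libraries left out, and was 16 without CTCFfl/fl library 2. It was 13 without the intensity trend of limma and 4 without both high-Xist libraries. Cytosolic ribosomal proteins, the products that these factors assemble, had 0 called members of 58, against 7.57% of all genes tested, with a median difference of 0.09. Of these differences 50 were above 0 and 8 below. In CD3/CD28 alone 7 members were called as higher and 0 as lower in CTCFfl/fl, against 9.88% and 8.76% of all genes tested there.

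The list of amino acid transport, ATF4 targets and tRNA synthetases ran the same way. Of 43 genes 20 were more negative in CD3/CD28 and 0 more positive, against 3.69% and 3.88% of all genes tested. The median difference was -0.47, with median effects of -0.34 under CD3/CD28 and 0.15 under LPS/IL4. Shmt2, the mitochondrial enzyme that takes 1-carbon units from serine, had 177, 132 and 172 CPM in CTCFfl/fl, against 221, 217 and 232 CPM in CTCFfl/+ in CD3/CD28. The LPS/IL4 levels were 194, 194 and 209.7 CPM in CTCFfl/fl, against 177, 180.1 and 155 CPM in CTCFfl/+. The libraries were apart in both cultures in opposite order, and the difference was -0.71 (standard error 0.14, adjusted p = 0.01). Phgdh, which opens serine synthesis, had 205, 150.1 and 185 CPM in CTCFfl/fl, against 213, 232 and 234 CPM in CTCFfl/+ in CD3/CD28 and 218, 217 and 223 CPM in CTCFfl/fl, against 166, 202 and 169.5 CPM in CTCFfl/+ in LPS/IL4, with a difference of -0.64 (standard error 0.14, adjusted p = 0.017). The glycyl-tRNA synthetase Gars differed by -0.51 (standard error 0.11, adjusted p = 0.017), and Atf5 belongs to this list as well. The count of 20 was 3 without CD3/CD28 CTCFfl/+ library 3 and at most 21 with another library left out. It was 2 both without the intensity trend and without both high-Xist libraries.

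**Figure D4:**
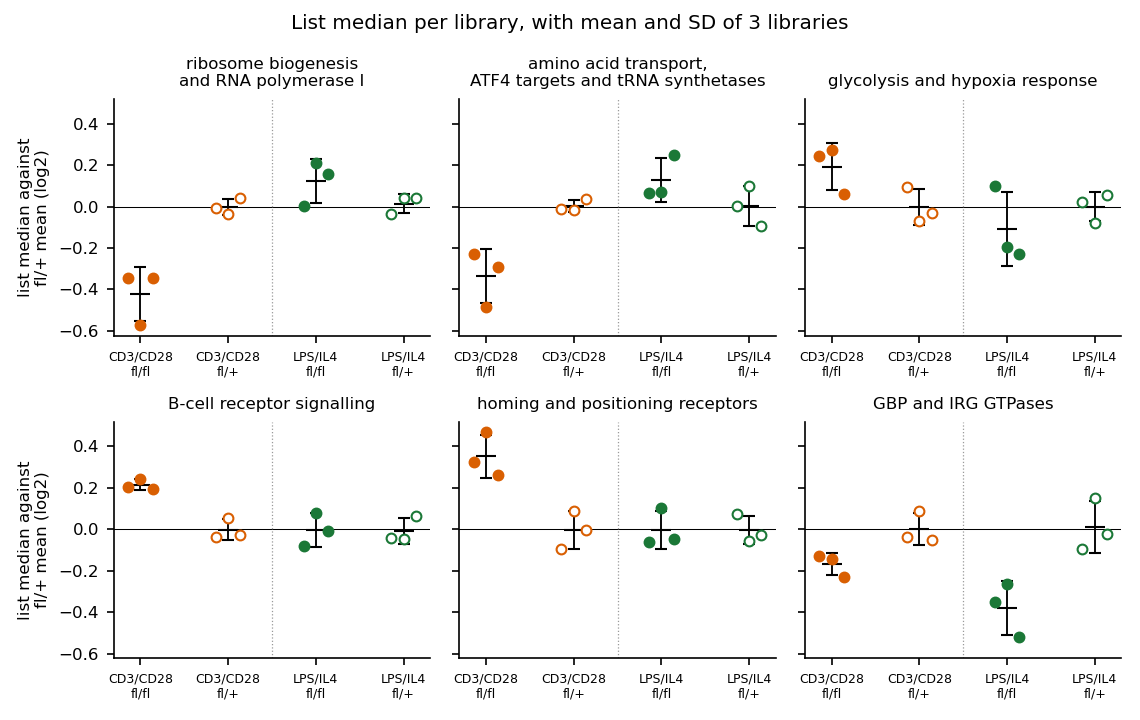
Median over the members of 6 gene lists in each library, as log2 distance from the CTCFfl/+ mean of the same culture (points), with the mean and SD of the 3 libraries of a group, CTCFfl/fl filled and CTCFfl/+ open. Ribosome biogenesis and amino acid genes lie low in CD3/CD28 CTCFfl/fl only, B-cell receptor and homing genes lie high there, and GBP and IRG GTPases lie low in CTCFfl/fl of both cultures.

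Myc, whose protein drives both of these gene groups in many cells, had 181, 203 and 172 CPM in CTCFfl/fl, against 239, 256 and 266 CPM in CTCFfl/+ in CD3/CD28 and 198, 248 and 241 CPM in CTCFfl/fl, against 229, 183 and 192 CPM in CTCFfl/+ in LPS/IL4. It fell in CTCFfl/fl in CD3/CD28, and the difference was -0.64 (standard error 0.14, adjusted p = 0.017). Of the 11 genes of the Myc list, the partners Mlxip, Mxd1 and Mxd4 were more positive in CD3/CD28, as were 3.88% of all genes tested. Mlxip, a glucose-sensing partner of Mlx, had 329, 355 and 309.7 CPM in CTCFfl/fl, against 233, 238 and 244 CPM in CTCFfl/+ in CD3/CD28. In LPS/IL4 it had 243, 263 and 239 CPM in CTCFfl/fl, against 341, 339 and 288 CPM in CTCFfl/+, apart in both cultures in opposite order, with a difference of 0.85 (standard error 0.11, adjusted p = 0.0011). Mxd1 and Mxd4, repressors that compete with Myc for Max, differed by 0.98 and 1.08. Myc lost its call without CD3/CD28 CTCFfl/+ library 3, without the intensity trend and without both high-Xist libraries (adjusted p up to 0.059), and Mxd4 under 10 alternatives. The list of proteasome and TRiC chaperonin had 2 more negative members of 39 (Cct6a and Psmd11, which lost its call under 16 alternatives), against 3.69% of all genes tested. Its median difference was -0.15, with 37 differences below 0 and 2 above. In CD3/CD28 all 39 effects were below 0, and 11 were called as lower in CTCFfl/fl, against 8.76% of all genes tested there. Oxidative phosphorylation had 0 of 51 called in either direction, against 7.57% of all genes tested, with a median of 0.05.

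Some genes of homing and of B-cell receptor signalling were more positive in CD3/CD28, as were 3.88% of all genes tested. Of 22 homing genes 6 were more positive, 2 (Gpr183 and Itgb1) more negative and 14 not called, with a median of 0.34 from effects of 0.33 under CD3/CD28 and 0.00 under LPS/IL4. Ccr7, the receptor that draws cells to T cell zones, had 312, 328 and 276 CPM in CTCFfl/fl, against 180.5, 208 and 184 CPM in CTCFfl/+ in CD3/CD28. With LPS and IL4 it had 200.4, 235 and 184 CPM in CTCFfl/fl, against 328, 261 and 281 CPM in CTCFfl/+. The order was reversed without overlap in either culture, and the difference was 1.17 (standard error 0.15, adjusted p = 0.0011). Itgam, which is also a myeloid marker, had 14.5, 22.8 and 20.8 CPM in CTCFfl/fl, against 4.02, 7.20 and 4.40 CPM in CTCFfl/+ in CD3/CD28 and 9.92, 16.1 and 9.02 CPM in CTCFfl/fl, against 7.50, 9.08 and 10.1 CPM in CTCFfl/+ in LPS/IL4, with a difference of 1.47 (standard error 0.34, adjusted p = 0.02). Its call was lost without CD3/CD28 CTCFfl/+ library 1 or 3, CD3/CD28 CTCFfl/fl library 2 or LPS/IL4 CTCFfl/fl library 3 (adjusted p up to 0.12 over the alternatives). Of 5 myeloid markers tested, 4 were called as higher and 0 as lower in CTCFfl/fl in CD3/CD28 alone. The shares over all genes tested there were 9.88% and 8.76%. All 5 differences between the cultures were above 0, and 1, that of Itgam, was called. The summed level of 7 myeloid markers in the table ran from 293 to 305 CPM in CTCFfl/fl and from 212 to 248 CPM in CTCFfl/+ CD3/CD28 libraries and from 257 to 291 and from 255 to 273 CPM in the CTCFfl/fl and CTCFfl/+ LPS/IL4 libraries, and the part of such cells was not tested.

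Of 39 genes of B-cell receptor signalling 7 were more positive, 0 more negative and 32 not called, with a median of 0.23 from effects of 0.24 under CD3/CD28 and 0.00 under LPS/IL4. For comparison, 3.88% of all genes tested were more positive and 3.69% more negative. Pik3ap1, the adaptor BCAP that recruits phosphoinositide 3-kinase, had 427, 442 and 378 CPM in CTCFfl/fl, against 301, 305 and 309 CPM in CTCFfl/+ in CD3/CD28 and 321, 363 and 368 CPM in CTCFfl/fl, against 379, 406 and 364 CPM in CTCFfl/+ in LPS/IL4. The difference was 0.57 (standard error 0.11, adjusted p = 0.0086). Syk, the kinase that carries the signal from the receptor, had 925, 1031 and 969 CPM in CTCFfl/fl, against 602, 633 and 616 CPM in CTCFfl/+ in CD3/CD28 and 679, 937 and 687 CPM in CTCFfl/fl, against 743, 784 and 909 CPM in CTCFfl/+ in LPS/IL4, and the inhibitory receptor Fcgr2b had 190.1, 226 and 231 CPM in CTCFfl/fl, against 108, 122 and 110.3 CPM in CTCFfl/+ in CD3/CD28 and 125, 205 and 137 CPM in CTCFfl/fl, against 148, 158 and 194 CPM in CTCFfl/+ in LPS/IL4. Both rose in CTCFfl/fl in CD3/CD28 and overlapped in LPS/IL4, with differences of 0.75 (standard error 0.16, adjusted p = 0.013) and 1.04 (standard error 0.21, adjusted p = 0.012). The others were Pik3cd, Bank1, Lyn and Pirb, and the list thus held activating as well as inhibitory members. The count of 7 was 3 without CD3/CD28 CTCFfl/+ library 1 and 0 without both high-Xist libraries, where the largest adjusted p of Syk was 0.071.

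Cytokine receptors with the STAT6 response were split. Of 34 genes 6 were more positive (Ifnar1, Il10ra, Jak3, Ifngr1, Stat3 and Tyk2) and 5 more negative (Fcer2a, Il4ra, Lifr, Cish and Socs1) in CD3/CD28, with a median of -0.06. Among all genes tested these shares were 3.88% and 3.69%. Il4ra, the receptor of IL4, had 429.7, 404 and 421 CPM in CTCFfl/fl, against 682, 651 and 576 CPM in CTCFfl/+ in CD3/CD28. In LPS/IL4, where IL4 was added, it had 588, 486 and 627 CPM in CTCFfl/fl, against 474, 500.5 and 458 CPM in CTCFfl/+. It fell in CTCFfl/fl in CD3/CD28, its lowest CTCFfl/fl library in LPS/IL4 lay within the CTCFfl/+ range, and the difference was -0.84 (standard error 0.13, adjusted p = 0.0028). Ifnar1, a subunit of the type I interferon receptor, had 116, 127 and 108 CPM in CTCFfl/fl, against 91.3, 88.6 and 97.2 CPM in CTCFfl/+ in CD3/CD28 and 94.02, 99.6 and 96.4 CPM in CTCFfl/fl, against 121, 123 and 109 CPM in CTCFfl/+ in LPS/IL4, apart in both in opposite order, with a difference of 0.61 (standard error 0.11, adjusted p = 0.0069). Among cytokines and chemokines, Il12a and Il16 were more positive and Ccl22 and Lta more negative of 18. Ccl22, a chemokine for T helper and regulatory cells, had 96.8, 73.2 and 92.3 CPM in CTCFfl/fl, against 151, 165 and 121 CPM in CTCFfl/+ in CD3/CD28 and 122, 146 and 139 CPM in CTCFfl/fl, against 115, 117 and 99.7 CPM in CTCFfl/+ in LPS/IL4, with a difference of -1.03 (standard error 0.17, adjusted p = 0.0059). Il12a, a subunit of interleukin 12, had 21.2, 29.4 and 26.2 CPM in CTCFfl/fl, against 11.5, 11.2 and 11.04 CPM in CTCFfl/+ in CD3/CD28 and 14.8, 19.8 and 17.5 CPM in CTCFfl/fl, against 18.3, 17.4 and 20.03 CPM in CTCFfl/+ in LPS/IL4, with a difference of 1.24 (standard error 0.19, adjusted p = 0.0028).

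Of 31 genes of the CD40, TNF receptor and NF-kB list 1 was more positive, Cd86, and 3 more negative, Ccl22, Birc3 and Nfkb1. The shares over all genes tested were 3.88% and 3.69%. The count of 3 was 1 without CD3/CD28 CTCFfl/+ library 1, with the replicate number as a block and without the intensity trend, and Nfkb1 lost its call under 13 and Birc3 under 8 of 25 alternatives. Cd86, a costimulatory ligand of CD28, had 164, 181 and 133 CPM in CTCFfl/fl, against 88.4, 87.5 and 102 CPM in CTCFfl/+ in CD3/CD28. LPS/IL4 cultures had 118, 104 and 82.3 CPM in CTCFfl/fl, against 155, 141 and 143 CPM in CTCFfl/+. The order was reversed without overlap, and the difference was 1.31 (standard error 0.18, adjusted p = 0.0015). Ctla4, which binds the same ligands and is listed among T cell markers, had 49.97, 70.1 and 50.1 CPM in CTCFfl/fl, against 41.5, 30.2 and 35.6 CPM in CTCFfl/+ in CD3/CD28 and 43.4, 39.2 and 24.6 CPM in CTCFfl/fl, against 57.8, 51.03 and 53.6 CPM in CTCFfl/+ in LPS/IL4, with a difference of 1.28 (standard error 0.26, adjusted p = 0.012). Toll-like receptor signalling had 1 more positive and 2 more negative members of 25, with a median of 0.08. These were Pik3ap1, Slc15a3 and Tlr7, of which Tlr7 lost its call under 15 alternatives (adjusted p up to 0.19).

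Of 16 genes of antigen presentation on MHC class II, 4 were more negative in CD3/CD28 and 0 more positive, with a median of -0.15. All genes tested gave 3.69% and 3.88%. Ciita, the coactivator of class II genes, had 276, 292 and 318 CPM in CTCFfl/fl, against 378, 420.3 and 391 CPM in CTCFfl/+ in CD3/CD28. The LPS/IL4 levels were 344, 373 and 414 CPM in CTCFfl/fl, against 354, 348 and 296 CPM in CTCFfl/+, with overlap, and the difference was -0.61 (standard error 0.12, adjusted p = 0.013). The others were H2-DMa, H2-DMb1 and H2-DMb2, the chains of the molecule that loads peptides, with differences of -0.41, -0.38 and -0.36. The count was 1 without CD3/CD28 CTCFfl/+ library 1 and 0 without both high-Xist libraries. MHC class I presentation had 1 more positive member of 21, the peptide transporter Tap1 at 0.38 (standard error 0.10, adjusted p = 0.031), which lost its call under 11 of 25 alternatives (adjusted p up to 0.12).

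Interferon-inducible GTPases of the GBP and IRG families, listed with their regulators, had negative median effects in both cultures. In CD3/CD28 10 of 14 effects were below 0, with a median of -0.19 and 5 called as lower in CTCFfl/fl (8.76% of all genes tested in that culture), and in LPS/IL4 all 14 were below 0, with a median of -0.41 and 0 called (0.0334% of all genes tested). In the interaction Nlrc5, the coactivator of class I genes, and Irf1 were more positive in CD3/CD28, as were 3.88% of all genes tested. The median difference was 0.28. Nlrc5 had 289, 284 and 282 CPM in CTCFfl/fl, against 259, 284 and 262 CPM in CTCFfl/+ in CD3/CD28 and 255, 267 and 218 CPM in CTCFfl/fl, against 301, 331 and 307 CPM in CTCFfl/+ in LPS/IL4, with a difference of 0.43 (standard error 0.11, adjusted p = 0.026). The LPS/IL4 groups alone were apart. Irf1 lost its call under 19 of 25 alternatives (adjusted p up to 0.14) and Nlrc5 under 7 (up to 0.12), among them those without CD3/CD28 CTCFfl/+ library 1 or 3. A separate list of 37 interferon-induced genes had 0 calls in either direction and a median of -0.03.

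Of 36 transcription factors of B cells and germinal centres Klf13, Ets1 and Runx3 were more positive and Nfil3 more negative, against 3.88% and 3.69% of all genes tested. The count of 3 more positive factors was 1 without CD3/CD28 CTCFfl/+ library 3 and 0 without the intensity trend, and Runx3 lost its call under 12 of 25 alternatives (adjusted p up to 0.13). Nfil3, which acts in class switching to IgE, had 129, 127 and 95.9 CPM in CTCFfl/fl, against 245, 197 and 196 CPM in CTCFfl/+ in CD3/CD28 and 179, 153 and 205 CPM in CTCFfl/fl, against 163, 132 and 158 CPM in CTCFfl/+ in LPS/IL4, with a difference of -1.10 (standard error 0.19, adjusted p = 0.0059). Ets1, which restrains plasma cell formation in mice, had 359, 396 and 364 CPM in CTCFfl/fl, against 287, 254 and 267 CPM in CTCFfl/+ in CD3/CD28 and 322, 299 and 344 CPM in CTCFfl/fl, against 318, 314 and 308 CPM in CTCFfl/+ in LPS/IL4, with a difference of 0.44 (standard error 0.10, adjusted p = 0.018). Of 28 plasma cell genes 2 were more positive, Prdm1 and Trp53inp1, and the median was 0.02. Xbp1, which drives secretion in plasma cells, had effects of -0.22 under CD3/CD28 and 0.15 under LPS/IL4 and was not called (-0.37 (standard error 0.12, adjusted p = 0.074)), nor was the joining chain gene Jchain (1.29 (standard error 0.39, adjusted p = 0.059)).

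In the list of the BCL-2 family and caspases some genes moved with Bmf. Of 24 genes 4 were more positive, Bmf, Bcl2l11, Apaf1 and Casp2, and 0 more negative, although the median was only 0.05. Bcl2l11, the proapoptotic protein Bim, had 328, 379 and 277 CPM in CTCFfl/fl, against 228, 204 and 202 CPM in CTCFfl/+ in CD3/CD28. In LPS/IL4 it had 290.5, 192 and 191 CPM in CTCFfl/fl, against 355, 292 and 262 CPM in CTCFfl/+, with overlap, and the difference was 1.07 (standard error 0.22, adjusted p = 0.012). Casp2 lost its call under 14 of 25 alternatives (adjusted p up to 0.16). The count of 4 was 3 without CD3/CD28 CTCFfl/+ library 1 and 1 without both high-Xist libraries. Of 36 p53 targets 5 were more positive and 3 more negative, against 3.88% and 3.69% of all genes tested, and the median was 0.08. Without CD3/CD28 CTCFfl/+ library 1 the first count was 2, without CTCFfl/+ library 3 the second was 0, and without both high-Xist libraries they were 1 and 0. Trp53inp1 had 113, 152 and 118 CPM in CTCFfl/fl, against 68.6, 68.3 and 68.6 CPM in CTCFfl/+ in CD3/CD28 and 88.04, 92.5 and 101 CPM in CTCFfl/fl, against 102, 105 and 80.8 CPM in CTCFfl/+ in LPS/IL4, with a difference of 0.91 (standard error 0.16, adjusted p = 0.0071). Of 25 immediate early genes Egr2 and Spred1 were more negative and Dusp6 and Dusp1 more positive. Dusp1 lost its call under 20 of 25 alternatives (adjusted p up to 0.16), and Dusp6 without CD3/CD28 CTCFfl/+ library 3 or LPS/IL4 CTCFfl/fl library 3, among others (up to 0.10). Egr2, induced by antigen receptors, had 38.9, 51.95 and 37.8 CPM in CTCFfl/fl, against 67.3, 73.6 and 65.7 CPM in CTCFfl/+ in CD3/CD28. Its LPS/IL4 libraries had 64.00, 62.6 and 71.2 CPM in CTCFfl/fl, against 54.02, 35.9 and 41.5 CPM in CTCFfl/+, the reverse order without overlap, with a difference of -1.30 (standard error 0.20, adjusted p = 0.0028).

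Genes of the cell cycle were mostly not called, as were most of all genes tested (3.88% more positive, 3.69% more negative in CD3/CD28). Of 50 genes of G1/S and DNA replication 1 (Orc2) was more negative, and of 45 of G2/M and mitosis 2 (Cenpa and Cdc25b) were more positive. Cenpa, the histone variant of centromeres, had 222, 206 and 199 CPM in CTCFfl/fl, against 137, 133 and 152 CPM in CTCFfl/+ in CD3/CD28. With LPS and IL4 it had 161, 176 and 133 CPM in CTCFfl/fl, against 191, 178 and 194 CPM in CTCFfl/+, apart in both cultures in opposite order, with a difference of 0.84 (standard error 0.13, adjusted p = 0.0036). The median differences of the lists were -0.08 and 0.06. Among brakes of the cycle, Rbl2 and Btg1 were more positive of 20 genes, with differences of 0.66 (standard error 0.15, adjusted p = 0.017) and 0.59 (standard error 0.15, adjusted p = 0.033). Btg1, Orc2 and Cdc25b lost their calls under 12, 11 and 14 of 25 alternatives, each of them without CD3/CD28 CTCFfl/+ library 1 among others. Glycolysis and the hypoxia response had 5 more positive and 1 more negative of 39 genes and a median of 0.31, from effects of 0.20 under CD3/CD28 and -0.12 under LPS/IL4. Besides Aldoc the more positive genes were Bnip3l, Pdk1, Ndrg1 and the glucose transporter gene Slc2a3, with differences of 0.75, 0.56, 1.05 and 1.06, and the more negative one was the lactate transporter gene Slc16a1, with -0.68. The count of 5 ran from 2 to 16 with single libraries left out (lowest without CD3/CD28 CTCFfl/+ library 3).

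**Figure D5:**
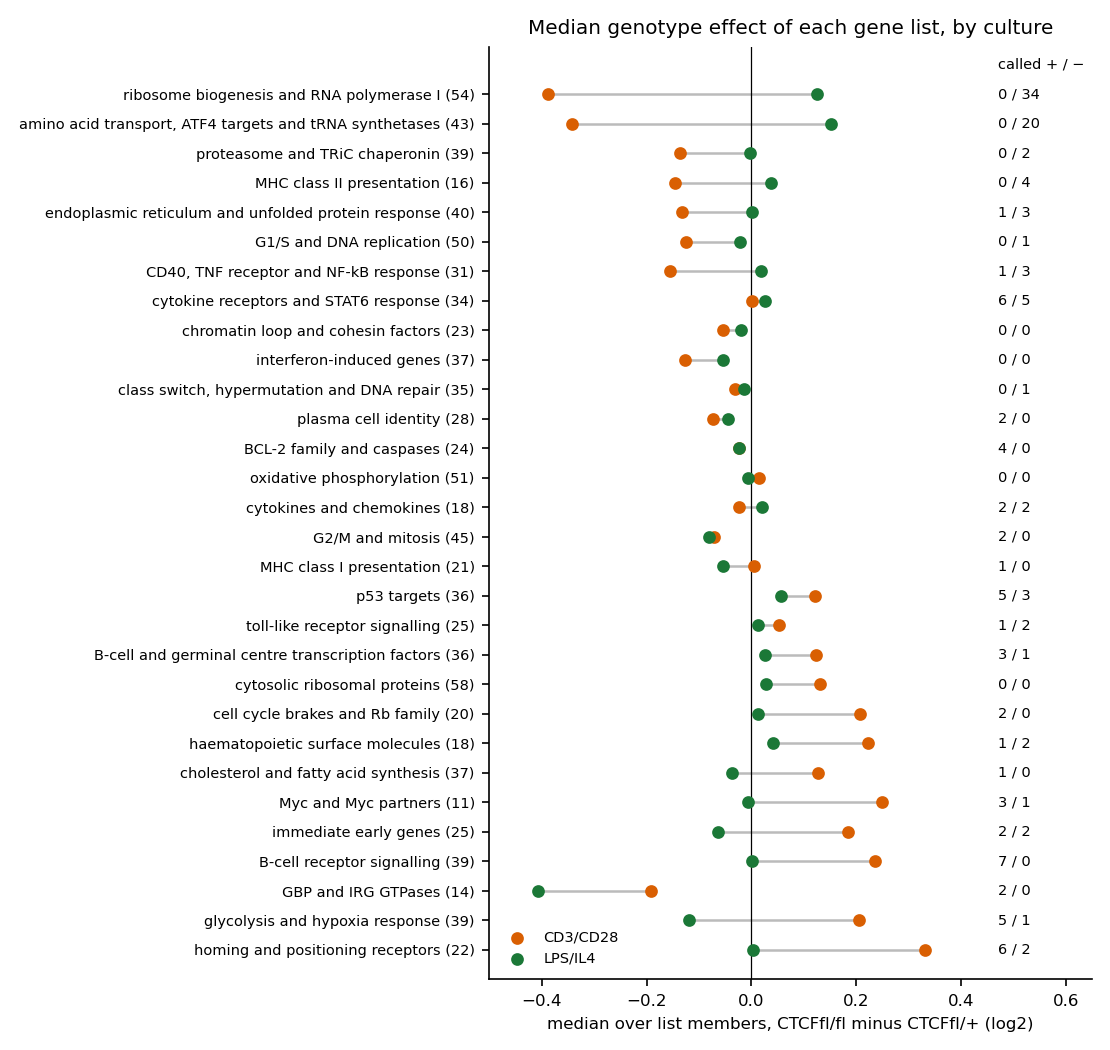
Median genotype effect (log2) of the members of 30 gene lists in CD3/CD28 (orange) and LPS/IL4 (green), ordered by the median difference, with the number of members tested in parentheses and the numbers called as more positive and more negative in CD3/CD28 at the right. Ribosome biogenesis and amino acid genes have the most negative differences (34 and 20 called), and GBP and IRG GTPases are the list with both medians well below 0.

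Of 23 genes of chromatin loops and cohesin, 0 were called in either direction, which is near the 7.57% of all genes for a list of this size, and their median difference was -0.06. The smallest adjusted p was that of Bhlhe40, a transcription factor, with 159, 183 and 129.8 CPM in CTCFfl/fl, against 134, 129 and 135 CPM in CTCFfl/+ in CD3/CD28 and 135, 138 and 109 CPM in CTCFfl/fl, against 180.2, 135 and 156 CPM in CTCFfl/+ in LPS/IL4 and a difference of 0.53 (standard error 0.18, adjusted p = 0.086). The zinc finger factors Maz and Yy1 had differences of -0.30 (standard error 0.11, adjusted p = 0.11) and -0.25 (standard error 0.09, adjusted p = 0.13). In class switching and repair 1 gene of 35 was called, Apex1, an endonuclease of base excision, with 62.95, 57.2 and 65.6 CPM in CTCFfl/fl, against 79.4, 82.2 and 85.9 CPM in CTCFfl/+ in CD3/CD28 and 78.7, 72.7 and 74.1 CPM in CTCFfl/fl, against 62.6, 66.1 and 73.8 CPM in CTCFfl/+ in LPS/IL4 and a difference of -0.57 (standard error 0.11, adjusted p = 0.011). Unfolded protein response genes included Eif2ak3, the sensor PERK, with 81.5, 75.9 and 80.2 CPM in CTCFfl/fl, against 60.02, 60.3 and 64.7 CPM in CTCFfl/+ in CD3/CD28 and 60.1, 70.5 and 64.4 CPM in CTCFfl/fl, against 80.7, 77.5 and 75.4 CPM in CTCFfl/+ in LPS/IL4. It was the only 1 of 40 that was more positive (0.62 (standard error 0.11, adjusted p = 0.0059)), and Sdf2l1, Hyou1 and Manf were more negative. The count of 3 was 0 without CD3/CD28 CTCFfl/+ library 1, with the replicate number as a block, without the intensity trend and without both high-Xist libraries.

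Called genes with a position in the GENCODE annotation of GRCm38 included 63 pairs of neighbouring tested genes with the same sign and 30 with opposite signs, among 891 genes. Runs of at least 3 neighbours with the same sign were found at 5 places. On chromosome 17 H2-DMa (from 34119541 to 34139101), H2-DMb2 and H2-DMb1 formed one, and Cox7a2l, Mta3 and Haao (83501918 to 83847963) another, with differences of 0.43, 0.58 and 0.72. On chromosome 19 Slc15a3, Tmem132a, Tmem109 and Prpf19 (10839727 to 10909559) were all more negative, with differences of -1.86, -1.58, -0.53 and -0.49. The annotated spans of Slc15a3 and Tmem132a overlap, as do those of Ccdc116 and Ydjc, which with Sdf2l1 formed the run on chromosome 16 (17130138 to 17160701), so that reads may be shared. On chromosome 5 N4bp2, Rhoh and Chrna9 (65763521 to 65977326) were more positive, with differences of 0.67, 1.15 and 2.23. Rhoh, a GTPase of haematopoietic cells, had 178, 197 and 168 CPM in CTCFfl/fl, against 94.8, 102 and 105 CPM in CTCFfl/+ in CD3/CD28 and 117, 171 and 90.6 CPM in CTCFfl/fl, against 144, 135 and 177 CPM in CTCFfl/+ in LPS/IL4. Each of the 5 runs held a gene whose call was lost without CD3/CD28 CTCFfl/+ library 1: Ccdc116, H2-DMb1, Cox7a2l, Tmem132a and N4bp2, with adjusted p up to 0.17, 0.14, 0.12, 0.13 and 0.17 over the alternatives.

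Promoters were searched for the core of the CTCF motif, CCNNNAGGNGGC, on both strands. In RefSeq promoters of GRCm38.p6, 250 bases before to 50 after the start, it was found in 47 of 696 called genes with a promoter (6.75%), in 615 of 8901 tested genes (6.91%) and in 1071 of 27025 promoters of the table (3.96%). The share was 7.1% for genes more positive and 6.4% for genes more negative in CD3/CD28. It was thus close to that of all tested genes, and a match is a run of letters, not a bound site. The matches of the 3 called genes with the smallest adjusted p are printed on the strand of the gene, with the 12 bases of the match in capitals.
Unc119b, chr5:115135028-115135079, minus strand, match starting 84 bases before the start site: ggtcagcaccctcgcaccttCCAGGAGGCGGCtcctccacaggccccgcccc
Nedd4, chr9:72662191-72662242, plus strand, match on the other strand starting 120 bases before the start site: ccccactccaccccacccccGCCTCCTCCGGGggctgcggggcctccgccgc
Ass1, chr2:31470136-31470187, plus strand, match starting 114 bases before the start site: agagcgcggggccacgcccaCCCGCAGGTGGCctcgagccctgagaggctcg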

How the data were processed

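Polyadenylated RNA of sorted hCD2+ B cells was sequenced as single reads of 61 bases. Per the submitters' processing notes, CASAVA 1.8, Cutadapt, RSEM 1.17 and edgeR were used, with GRCm38. The deposited table holds normalized CPM made by the authors for 12699 genes, of which 12598 were named here from GENCODE M21. Whole reads were recovered from the CPM, since 100% of entries equalled a whole number of steps of 1 size in each library (tolerance 0.01). These may not be the reads first counted, since the culture means of most genes are nearly equal.

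Tests used limma 3.58.1 (R 4.3.3) on log2(CPM + 0.5), with 1 mean per group and variances moderated towards an intensity trend. The interaction was fitted on all 12 libraries, and each culture was also fitted alone on 6. The depth limits the precision of low genes, and the spread of 3 libraries that of the others. Libraries are pools of mice, but nothing states that pools were cultured on separate days, so that p-values measure the spread between these libraries. On simulated data for the interaction, 23.9%, 73.1% and 100% of changes of 1.5-, 2- and 4-fold were found, with 6 false calls among 11716 genes. Reads were drawn independently per gene and library, with the spread of each gene taken from the real libraries. Changes were placed only in CD3/CD28 CTCFfl/fl libraries and in genes averaging 5 CPM or more. Differences shared by many genes of a library were not simulated, so the false calls do not give the error rate of the real data. Libraries of 1 group differed beyond sampling noise in every pair (chi-square of recovered reads per degree of freedom from 4.38 to 38.9).

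Genes are named by a rule: Ctcf, the 12 most positive and 12 most negative differences among called genes averaging 5 CPM or more (leaving out predicted genes, pseudogenes and Riken clones), the 10 smallest adjusted p among called genes with a larger LPS/IL4 effect, up to 4 members of each list, genes called in LPS/IL4 alone, the 8 largest same-sign LPS/IL4 effects among genes called in CD3/CD28 only, and runs of at least 3 neighbours. Some genes that the rule takes are not reported here. The members and the gene lists were chosen with earlier results of these data known. Alternatives were a pseudocount of 0.1 or 1, normalization by median of ratios or by quantiles, 2 other filters, no intensity trend, library weights, the replicate number as a block, edgeR 4.0.16 (quasi-likelihood) and DESeq2 1.42.0 on the recovered reads, and leaving out each library. Leaving out both number 1 LPS/IL4 libraries, or both high-Xist CD3/CD28 libraries, was added after the data were seen.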

Additional observations from a re-analysis of the deposited data

Results flagged for a closer look

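The genotype effect differed between the cultures for 897 genes by the interaction test of limma, of which 460 were more positive and 437 more negative in CD3/CD28. Among the named genes with the largest differences or with larger effects in LPS/IL4, 14 had libraries of the genotypes apart in both cultures and in opposite order. The difference of the log2 effects (CD3/CD28 minus LPS/IL4) was 2.05 for Spata13, 1.97 for Igha, 1.77 for Cytip, 1.69 for Prdm1, 1.08 for F8a, 1.03 for Cpeb2, 0.52 for Tspan3 and 0.51 for Serp1, which were higher in CTCFfl/fl in CD3/CD28 and lower in LPS/IL4. It was -4.28 for Hist2h2aa2, -1.61 for Spsb1, -1.59 for Rab35, -1.06 for Ncs1, -0.84 for Atf5 and -0.68 for Fam133b, which were lower in CTCFfl/fl in CD3/CD28 and higher in LPS/IL4. Libraries apart in opposite order were found for 244 of the 897 called genes and for 2.86% of all genes tested. The choice of genes by their difference favours this pattern, and the cultures were separate batches.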

How the results depend on the processing

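No named result changed direction with a call under any alternative, and the difference of Ctcf remained without a call under all of them (0.13 to 0.29 with single libraries left out). Of 114 named genes called in the interaction, 39 were called under all 25 alternatives, 38 lost the call under 1 to 5 and 37 under more than 5. The 897 interaction calls (460 more positive and 437 more negative in CD3/CD28) came to 388 without the intensity trend (208 and 180), 199 at a difference of at least 1 log2 unit (133 and 66) and 156 without both high-Xist CD3/CD28 libraries (89 and 67). With single libraries left out they ran from 405 to 989 (223 to 517 and 182 to 485), with 458, 405, 475 and 509 without CD3/CD28 CTCFfl/+ libraries 1 and 3, CD3/CD28 CTCFfl/fl library 2 and LPS/IL4 CTCFfl/fl library 3, each left out alone. edgeR gave 800 and DESeq2 1138, sharing 793 and 880 with the 897. The CD3/CD28 calls, 2250, came to 1092 without the trend, 835 without both high-Xist libraries, 193 at an absolute log2 value of at least 1, and 1005 to 2321 with single libraries left out, with 1181, 1415 and 1005 without CTCFfl/+ libraries 1, 2 and 3. The 4 LPS/IL4 calls came to 7 with a pseudocount of 1, 2 with quantile normalization, 2 without a filter, 2 at an absolute log2 value of at least 1, 1 without the trend, 37 with DESeq2, and 2 to 75 with single libraries left out, highest without LPS/IL4 CTCFfl/+ library 3. With the replicate number as a block, which does not pair the libraries, the interaction gave 604 calls (325 and 279), CD3/CD28 1870 and LPS/IL4 18, with same-number correlations from -0.10 to 0.03 in CD3/CD28 and from -0.20 to 0.30 in LPS/IL4. Not every library correlated best with its own number. The cause of these changes was not tested. Depth and 3 libraries per group limit the precision, so that the 95% interval of a difference extended a median of 0.32 log2 units to either side in genes averaging 5 CPM or more.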
